A study of Mus musculus with 6 samples.

Results

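Collagen and laminin genes were followed through 6 RNA sequencing libraries of bEND.3, a mouse line derived from brain endothelium. Genes were taken by symbol, every numbered collagen chain and every laminin alpha, beta or gamma chain, which gave 48 of the 15398 annotated genes of the table, 38 collagens and 10 laminins. One group of 3 libraries was made from cells that stably express circSlc17a5, the circular RNA of the Slc17a5 locus, and the other group of 3 from stable cells given the empty vector instead, called control. All 6 are stable lines of the same cells, and the labels do not say whether replicates were separate cultures, clones or days, and a p-value here therefore reflects no more than the scatter among the 6 libraries, which may be technical. The study concerns new vessels in the eye, and its comparison sets gene expression with the circular RNA against that without it.

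Collagens are built from chains that wind around each other into a rope-like helix. Fibrillar collagens form the cables of connective tissue, and network collagens, foremost type IV, form the sheet of basement membranes. FACIT collagens sit on the surface of fibrils, and other collagens form beaded filaments, anchoring fibrils or membrane-spanning proteins. Laminins are cross-shaped proteins with 1 alpha, 1 beta and 1 gamma chain, and together with type IV collagen they form the basement membrane on which endothelial and epithelial cells rest. Most chains can be secreted only after they have found their partner chains in the cell.

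Promoter sequences were looked up for a fibrillar chain whose level was uneven over the libraries (Col1a2), for one that was abundant in all of them (Col3a1) and for the type VI collagen chains Col6a1 and Col6a2, whose levels were far apart. The RefSeq tables (GRCm38.p6) held a promoter window for 35 of the 48 genes, and in 13 of them it began at the deposited gene start. The 250 bases before the start are given 5′ to 3′ on the gene's strand, with the matches of 4 motifs on either strand in capitals. The motifs were the CCAAT box, the Sp1-type GGGCGG box, the AP-1-type sequence TGANTCA and the TATA-type sequence TATAAA. The windows are chr6:4505368-4505617 (plus strand), chr1:45311288-45311537 (plus strand), chr10:76726045-76726294 (minus strand) and chr10:76623631-76623880 (minus strand).
Col1a2: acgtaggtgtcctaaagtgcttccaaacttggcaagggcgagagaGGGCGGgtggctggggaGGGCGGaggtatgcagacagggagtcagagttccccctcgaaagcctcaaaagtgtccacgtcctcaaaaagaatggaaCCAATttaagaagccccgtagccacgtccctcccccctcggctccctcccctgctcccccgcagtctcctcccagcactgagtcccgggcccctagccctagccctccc
Col3a1: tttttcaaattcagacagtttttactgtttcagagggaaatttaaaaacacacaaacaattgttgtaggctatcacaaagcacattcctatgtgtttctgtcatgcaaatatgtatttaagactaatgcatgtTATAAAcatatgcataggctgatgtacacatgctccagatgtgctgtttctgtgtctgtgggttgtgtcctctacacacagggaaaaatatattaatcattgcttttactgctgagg
Col6a1: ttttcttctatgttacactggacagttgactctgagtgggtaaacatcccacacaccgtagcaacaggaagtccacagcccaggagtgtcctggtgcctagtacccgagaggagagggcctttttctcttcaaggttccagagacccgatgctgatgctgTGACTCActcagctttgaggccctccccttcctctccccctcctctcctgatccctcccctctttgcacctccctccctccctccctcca
Col6a2: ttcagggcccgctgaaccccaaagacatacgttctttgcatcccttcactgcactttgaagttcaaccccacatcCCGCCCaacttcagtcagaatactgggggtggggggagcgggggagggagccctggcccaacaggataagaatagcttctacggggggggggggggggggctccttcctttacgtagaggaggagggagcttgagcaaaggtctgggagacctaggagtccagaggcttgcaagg
The Col1a2 window held GGGCGG at 205 and 188 bases and CCAAT at 109 bases before the start. That of Col3a1 held neither and had TATAAA at 117 bases. Col6a1 had TGANTCA at 90 bases, and Col6a2 had GGGCGG on the opposite strand, printed as CCGCCC, at 175 bases. No 2 matches overlapped in the printed windows. Col6a2 had another RefSeq window, not printed, whose start was not the deposited one. It held GGGCGG on the opposite strand at 67, 15 and 11 bases. Among all 32851 windows of the same length, 33.8% held CCAAT, 32.7% GGGCGG, 6.75% TGANTCA and 12.4% TATAAA. Among the 13 windows at a deposited start, 5 held CCAAT, 8 GGGCGG, 1 TGANTCA and 3 TATAAA. A match describes letters only and not a bound site.

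Libraries held between 16848513 and 17146112 expected counts with circSlc17a5 and between 16989017 and 17600230 in control. Collagens and laminins took 0.509%, 0.441% and 0.449% of these counts in circSlc17a5 replicates 1, 2 and 3, against 0.41%, 0.368% and 0.401% in control replicates 1, 2 and 3. The labelled cell type was set beside marker lists. Of 10 endothelial markers 9 were in the table, and Egfl7 alone, at a mean of 13.7 FPKM (the authors' fragments per kilobase of transcript, scaled to library size), made up most of their sum, which lay between 14.3 and 16.6 FPKM with circSlc17a5 and between 12.4 and 14.6 in control. Pecam1 and Cdh5, which define endothelial cells, averaged 0.172 and 0.398 FPKM, the receptor gene Kdr averaged 0.018, and the endothelial transcription factor gene Erg was listed at 0 in all libraries but circSlc17a5 replicate 2, and the tight junction gene Cldn5 in all but control replicate 2. Markers of simple epithelia summed to between 1562 and 1697 FPKM with circSlc17a5 and between 1676 and 2102 in control, nearly all of it from the keratin genes Krt18, Krt8 and Krt19. The rest of that list was low. Epcam averaged 0.858 FPKM, and Cdh1, Krt7, Cldn3 and Cldn4 averaged 0.018, 0.013, 0.01 and 0.013 FPKM. Markers of primitive and parietal endoderm summed to between 149 and 168 FPKM with circSlc17a5, above the 89.4 to 121 FPKM in control. Of 10 such markers 8 were in the table, and most of the sum came from Plat, with 129, 115 and 112 FPKM with circSlc17a5, against 86.3, 57.5 and 71.9 in control. Of the 6 tested, Plat and Pdgfra rose, and Gata6, Foxa2, Dab2 and Thbd were not called. Sox7 and Pth1r, in the table but not tested, averaged 0.013 and 0.05 FPKM. By these markers the label of an endothelial line was not borne out, and the samples are called bEND.3 here as labelled.

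**Figure D1:**
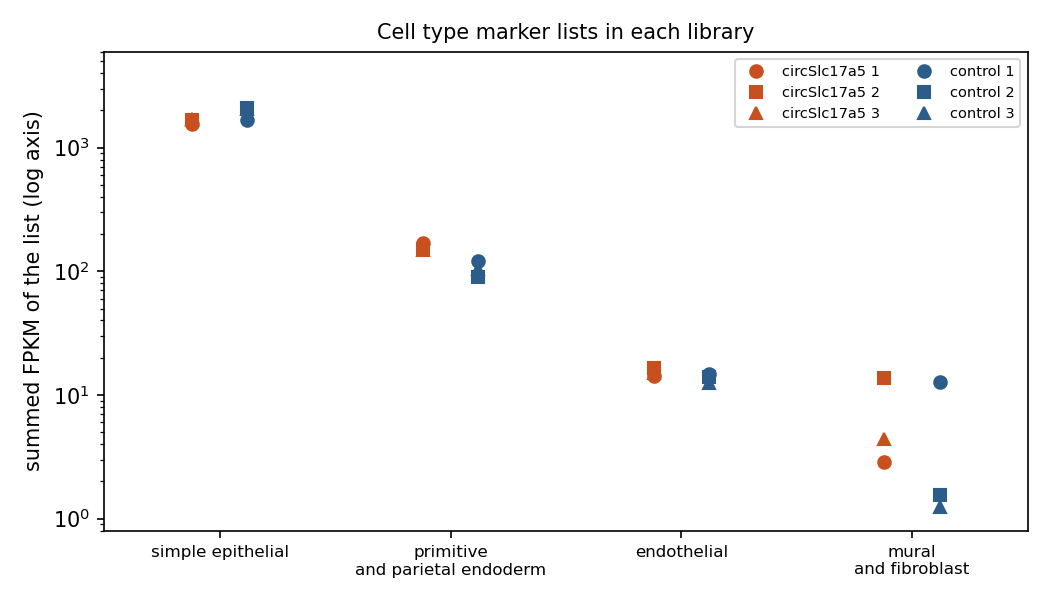
Summed FPKM (log axis) of 4 cell type marker lists in each library, with circSlc17a5 libraries at the left and control libraries at the right of each list. The mural and fibroblast list stands at 13.6 FPKM in circSlc17a5 replicate 2 and 12.8 in control replicate 1, against 4.43 or less in the other 4 libraries.

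Markers of mural cells and fibroblasts varied within each group. Of 12, 11 were in the table, and they summed to 2.86, 13.6 and 4.43 FPKM in circSlc17a5 replicates 1, 2 and 3, against 12.8, 1.54 and 1.24 FPKM in control replicates 1, 2 and 3. The libraries circSlc17a5 replicate 2 and control replicate 1 stood apart from the rest of their groups, and both sums rested mainly on Tagln and Acta2, genes of the contractile apparatus. Of the 4 markers tested between the groups, Pdgfra and Pdgfrb rose with circSlc17a5 and 2 were not called. Tagln had 6.56 FPKM in circSlc17a5 replicate 2 and 6.27 in control replicate 1 and was listed at 0 in control replicate 3, and Cnn1 was listed at 0 in the 4 libraries outside this pair. In bulk RNA, fewer cells of a type and less RNA per cell cannot be told apart. Where leaving out control replicate 1, or both of these libraries, changed a call or a direction of a named collagen or laminin gene, the value is given with it.

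Of the 48 genes, 19 reached a mean of 1 FPKM over the 6 libraries, and 15 stayed under 10 counts in every library. The most abundant chain per length was Col18a1, a multiplexin of basement membranes whose end fragment is endostatin (chromosome 10, 77052178 to 77166530), at a mean of 139 FPKM. It was followed by Col4a1 and Lamb1 (74.1 and 72.1 FPKM), Col6a1 and Col3a1 (66.7 and 60.5), Lama5 and Col4a2 (53.8 and 50.1), Lamc1 and Col5a3 (45.3 and 43.8) and Col16a1 (30.8). Lamb2, Col4a5 and Col5a1 lay between 18.5 and 20.5 FPKM, and the remaining genes under 10. Neighbours in this order lay within each other's spread over libraries in several cases. Lamb1 ranged from 67.1 to 83.0 FPKM and Col6a1 from 60.2 to 72.1, and Col4a1 from 55.8 to 94.1. Lama1 and several further chains were not among the annotated genes of the table and so could not be analysed.

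**Figure D2:**
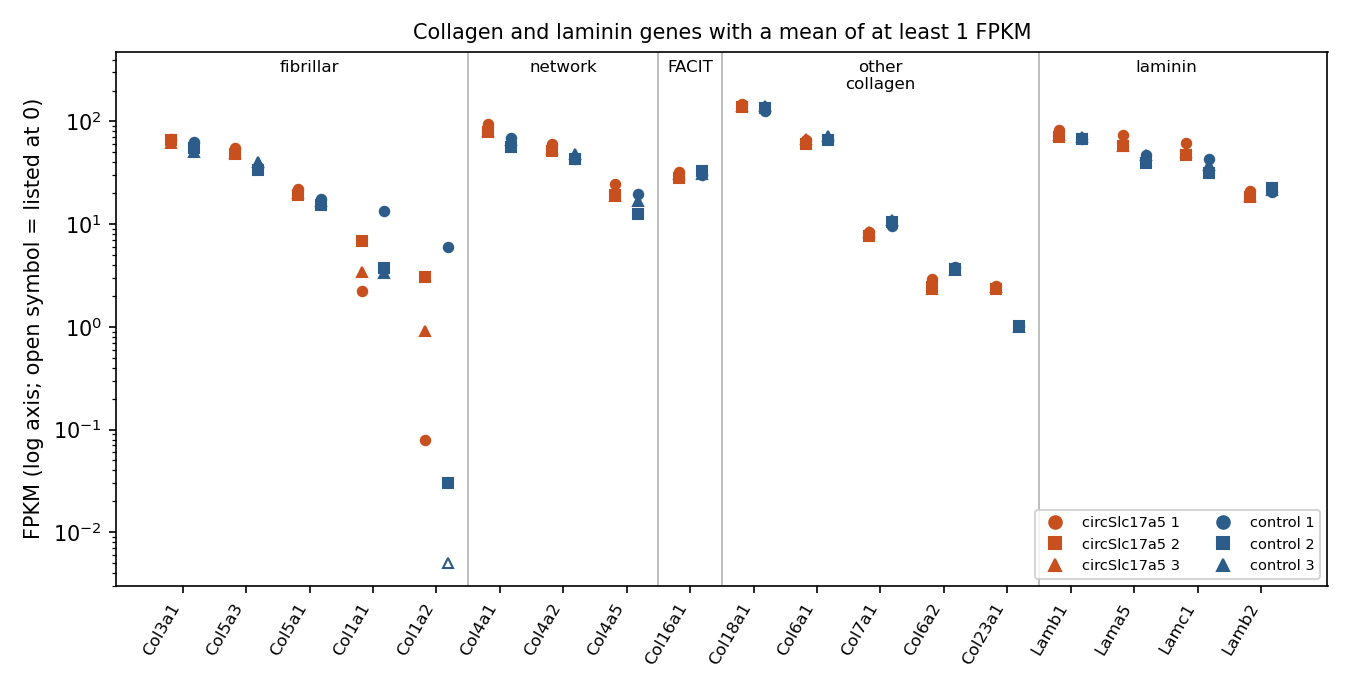
FPKM (log axis) of 18 genes with a mean of at least 1 FPKM, ordered by class and level, with circSlc17a5 libraries left and control libraries right for each gene. Most genes form a tight cluster, while Col1a2 runs from 0 in control replicate 3 to 6.05 in control replicate 1 and Col1a1 from 2.25 to 13.5.

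The first question was which chains were high in circSlc17a5 replicate 2 and control replicate 1 and which were even. A gene was counted as high in this pair of libraries when both had at least 2 times the normalised level (counts scaled to library size with TMM factors, CPM) of every other library, with at least 10 counts somewhere. A gene was counted as even when its highest library was under 1.5 times its lowest. The pair of libraries was named from earlier results of these data, so these counts are a description with no test. Of the 33 genes with 10 counts in a library, 3 followed the pair and 11 were even. Among all 12113 such genes 19 followed the pair, which is 0.157%, and 63.9% were even. The other 19 of the 33 met neither definition.

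The 3 genes that followed the pair were Col1a2, Col5a2 and Col14a1. Col1a2, a chain of type I collagen, the main cable of connective tissue (chromosome 6, 4505618 to 4541543), had 7, 257 and 77 counts in circSlc17a5 replicates 1, 2 and 3, against 508, 3 and 0 in control replicates 1, 2 and 3. Its promoter is printed above. Col5a2, the partner of Col5a1 in the fine fibrils that nucleate type I cables (chromosome 1, 45374331 to 45503282), had 3, 78 and 16 counts with circSlc17a5, against 133, 0 and 0 in control. In both genes circSlc17a5 replicate 3 held the next highest level, and the groups overlapped. The FACIT chain Col14a1 (chromosome 15, 55307644 to 55520803) had 6, 25 and 3 counts with circSlc17a5 and 21, 1 and 2 in control. The lower library of the pair exceeded the highest of the other 4 by 3.27 times for Col1a2, 3.67 times for Col14a1 and 4.78 times for Col5a2. Just outside the limit of 2 lay Col1a1 at 1.74, Col15a1 at 1.31 and Col11a1 at 1.22. A count of 0 in a library of this depth allows up to 3 counts, and such limits cover counting error only.

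Col1a1, the other chain of type I collagen (chromosome 11, 94936224 to 94953042), was uneven above a higher floor. It had 216, 672 and 325 counts with circSlc17a5, against 1298, 366 and 332 in control, so that its lowest library still held 216 counts, where Col1a2 had 7. The ratio of Col1a1 to Col1a2 in FPKM was 2.29 in circSlc17a5 replicate 2 and 2.24 in control replicate 1, and 3.71 in circSlc17a5 replicate 3, 28.1 in circSlc17a5 replicate 1 and 124 in control replicate 2. Col1a2 had only 7 counts in circSlc17a5 replicate 1 and 3 in control replicate 2. No ratio was formed in control replicate 3, where Col1a2 had 0 counts. Col11a1, a minor chain of cartilage-type fibrils, had 2, 20 and 16 counts with circSlc17a5 and 61, 0 and 0 in control. Single libraries stood out in other genes. Col12a1, a FACIT chain, had 16, 11 and 13 counts with circSlc17a5, against 67, 12 and 6 in control, high in control replicate 1 alone. Col15a1, a multiplexin, had 8, 41 and 6 counts with circSlc17a5 and 10, 3 and 2 in control, high in circSlc17a5 replicate 2 alone.

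**Figure D3:**
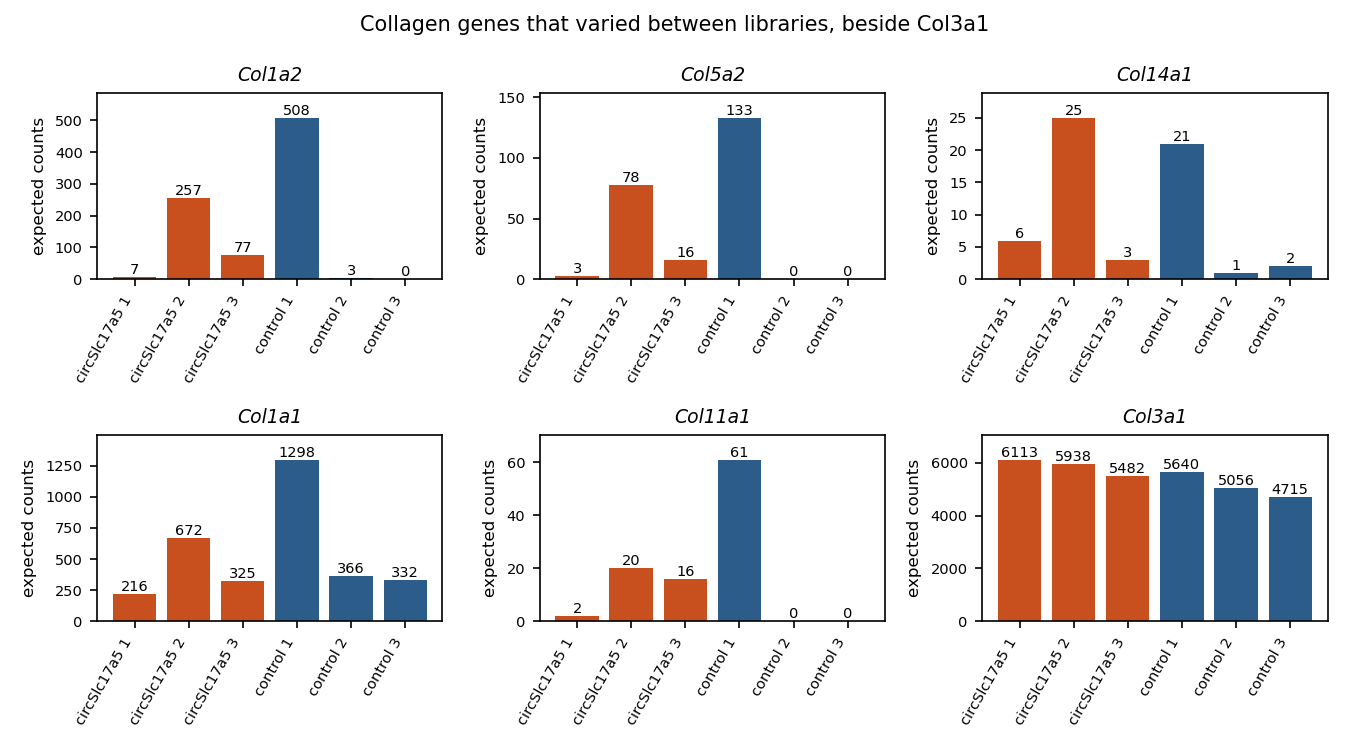
Expected counts per library of 5 collagen genes with uneven levels and of Col3a1, with circSlc17a5 libraries left of control libraries and a linear axis from 0 in each panel. Col1a2 reaches 257 counts in circSlc17a5 replicate 2 and 508 in control replicate 1 and 77 or fewer elsewhere, while Col3a1 lies between 4715 and 6113 in all 6 libraries.

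The 16 other genes of the table that followed the pair were Acta2, Actg2, App, Bgn, Ccdc80, Ctsh, Fbn1, Itga11, Itgb1, Lox, Mmp2, Myl9, Postn, Rcn3, Srpx and Tagln. Among them are contractile genes (Acta2, Actg2, Myl9, Tagln), the collagen crosslinking enzyme gene Lox, the microfibril gene Fbn1 and the collagen-binding integrin gene Itga11. All 19 genes together summed to 61, 985 and 207 counts with circSlc17a5, against 1333, 31 and 25 in control. Itgb1, the beta subunit shared by most collagen and laminin receptors, had 4, 64 and 6 counts with circSlc17a5 and 60, 0 and 0 in control. Its laminin-binding alpha partner gene Itga3 was even, between 60.3 and 66.9 FPKM with circSlc17a5 and between 58.8 and 65.0 in control. The part of mural or fibroblast cells in the levels of Col1a2, Col5a2, Col14a1, Col1a1 and Col11a1 was not tested.

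The even genes included chains of the same fibril family. Col3a1, the fibrillar chain of elastic tissues and vessel walls (chromosome 1, 45311538 to 45349706), had 68.0, 65.5 and 61.45 FPKM with circSlc17a5, against 62.8, 54.8 and 50.6 in control. It lies 24624 bases from Col5a2 with no other gene of the table between them, so direct neighbours on the chromosome differed in pattern, one near absent in control replicates 2 and 3 and the other abundant everywhere. Col5a1 had 21.9, 19.1 and 20.0 FPKM with circSlc17a5, against 17.7, 15.5 and 16.7 in control, while its usual partner chain Col5a2 was listed at 0 in control replicates 2 and 3. The remaining even genes were Col2a1 (at 0.17 to 0.23 FPKM), Col5a3, Col4a2, Col16a1, Col6a1, Col7a1, Col18a1, Lamb1 and Lamb2. The even limit of 1.5 ran close to several genes. Col7a1 at a ratio of 1.499 and Col5a3 at 1.463 fell inside it, and Col4a1 at 1.520 and Col20a1 at 1.577 outside.

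Set against control, circSlc17a5 cells had higher levels of the laminin chains Lama5, Lamc1 and Lama3, of the basement membrane collagen chain Col4a1, of the fibrillar chain Col5a3 and of the transmembrane collagen Col23a1, and lower levels of the anchoring fibril collagen Col7a1 and of the type VI chain Col6a2. Counts were tested over all genes with edgeR's quasi-likelihood test, and a gene was called when its p, adjusted by Benjamini and Hochberg's method, was under 0.05. All log2 fold changes are circSlc17a5 over control. Of the 48 genes 28 passed the filter on low counts, and of these 7 rose, 2 fell and 19 were not called. Over all 11722 tested genes 11.8% rose and 10.2% fell, beside 25.0% that rose among these 28. The groups did not overlap in CPM for 16 of the 28, and for 42.6% of all tested genes. The 28 are long, with a median effective length of 5997 bases against 2611 over all tested genes. Among the 1158 tested genes at least as long as their median 27.2% rose, a share near that of the 28. The median log2 fold change was 0.05 among the 28, -0.002 among all tested genes and 0.21 among the 1158 long ones. With an offset for effective length 3 of the 28 rose and 5 fell, beside 1315 and 1155 of 11698 genes in that fit. The calls of Col4a1, Lama5 and Lama3 ended there, and Col6a1, Col16a1 and Lamb2 became called falls (edgeR adjusted p = 0.0333, 0.0462 and 0.0123). With an offset for length and GC content, chosen after seeing the data, 5 rose and 4 fell, beside 1307 and 1154 of 11416 genes. The number of collagen and laminin genes that rose also changed with single libraries. It was 1 without circSlc17a5 replicate 1, 3 without replicate 2 or 3 of that group, 13 without control replicate 1 and 2 without control replicate 2 or 3. Over all tested genes the number that rose moved in the same direction in each of these fits. From 1386 it went to 346, 475 and 699 without circSlc17a5 replicates 1, 2 and 3. It went to 2424, 637 and 492 without control replicates 1, 2 and 3. Without both circSlc17a5 replicate 2 and control replicate 1, 9 of 25 collagen and laminin genes rose and 2 fell, beside 1951 and 1729 of all 11772. Of the 9 calls, those of Col23a1 and Col6a2 held under every alternative tried.

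**Figure D4:**
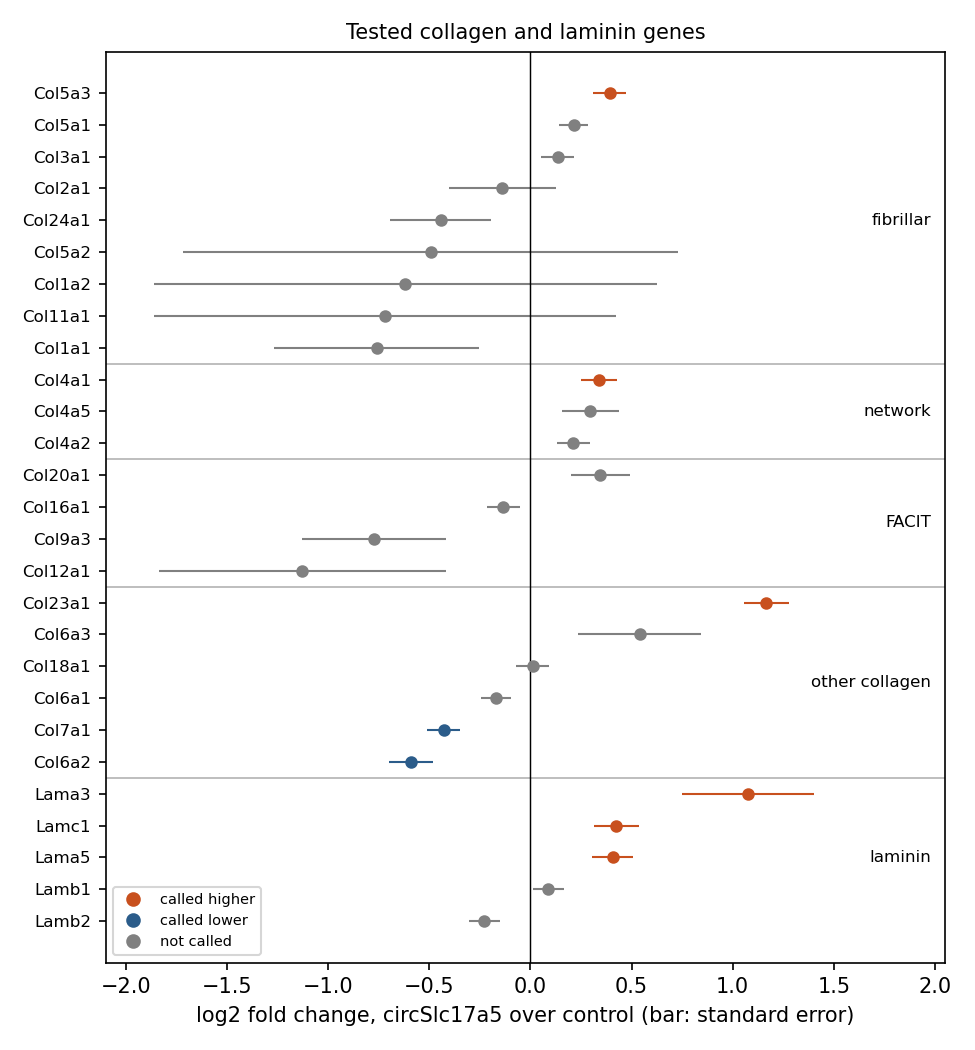
Log2 fold change of circSlc17a5 over control for 27 tested genes, grouped by class, with the standard error as a bar and calls by edgeR's adjusted p in colour. Col23a1 at 1.17 has the largest called rise and Col6a2 at -0.59 the largest called fall, and the uneven genes Col1a2, Col5a2 and Col11a1 carry standard errors above 1.

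Among fibrillar collagens 1 of 9 tested genes rose and 0 fell, with a median log2 fold change of -0.44. This median includes the uneven genes Col1a2, Col5a2, Col11a1 and Col1a1, which could not be placed, as given below. The abundant chains Col3a1, Col5a1 and Col5a3 had positive values, and the other tested chains had negative ones. Col5a3, a minor chain of type V collagen (chromosome 9, 20770057 to 20815117), had 55.2, 48.2 and 49.5 FPKM with circSlc17a5, against 36.1, 33.9 and 40.1 in control. All circSlc17a5 libraries lay above all control libraries. It was 1.31-fold higher (log2 fold change 0.39, SE 0.082, edgeR adjusted p = 0.0129), a call that ended without circSlc17a5 replicate 1 (adjusted p = 0.062). Col5a1 was also higher in each circSlc17a5 library than in each control library and missed the threshold (log2 fold change 0.21, SE 0.071, edgeR adjusted p = 0.0535, DESeq2 adjusted p = 0.0428). It became a called rise without control replicate 1 (edgeR adjusted p = 0.0281) and without both libraries of the pair (edgeR adjusted p = 0.0470). With the effective length offset the log2 fold change of Col5a1 was only 0.004 (edgeR adjusted p = 0.965). The threshold was also missed by Col3a1 (0.13, SE 0.080, adjusted p = 0.234), whose groups overlapped. The uneven genes could not be placed: Col1a2 had a log2 fold change of -0.62 with an SE of 1.24 (edgeR adjusted p = 0.737), Col5a2 of -0.49 with an SE of 1.22 (adjusted p = 0.789), Col11a1 of -0.72 with an SE of 1.14 (adjusted p = 0.665) and Col1a1 of -0.76 with an SE of 0.51 (adjusted p = 0.284). Without control replicate 1 the first 3 of these turned to called rises (edgeR adjusted p = 0.0107 for Col1a2, 0.0187 for Col5a2 and 0.0101 for Col11a1), so a single library set their direction. Without both libraries of the pair these 3 did not pass the filter. Col1a1 had a log2 fold change of 0.15 without control replicate 1 (edgeR adjusted p = 0.735) and of -0.42 without both (adjusted p = 0.0755). Col2a1 and Col24a1, chains of cartilage and bone, stayed under 30 counts in each library, Col11a2 peaked at 12 counts in circSlc17a5 replicate 1, and Col27a1 had at most 4.

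Of the 9 network collagens 3 were tested, 1 rose and 5 stayed under 10 counts everywhere. Col4a1 (chromosome 8, 11187756 to 11312889) had 94.1, 78.9 and 81.05 FPKM with circSlc17a5, against 69.2, 55.8 and 65.4 in control. The groups did not overlap, and the gene was 1.26-fold higher (log2 fold change 0.34, SE 0.088, edgeR adjusted p = 0.0265). This call held in 1 of 6 fits that each left out a library (adjusted p from 0.00675 to 0.11). Col4a2, its partner in the common type IV protomer, had 60.75, 51.1 and 53.6 FPKM with circSlc17a5, against 43.3, 43.4 and 48.2 in control, again with no overlap, and missed the threshold (log2 fold change 0.21, SE 0.083, edgeR adjusted p = 0.0851). With the effective length offset the log2 fold change of Col4a2 was 0.037 (edgeR adjusted p = 0.752). The deposited spans of Col4a1 and Col4a2 share 85 bases at their starts. Col4a5, a chain of the kidney and lung basement membrane that in human is mutated in Alport syndrome, had 24.8, 19.1 and 19.0 FPKM with circSlc17a5, against 19.5, 12.5 and 16.85 in control, with overlap (log2 fold change 0.30, SE 0.14, edgeR adjusted p = 0.143). It became a called rise without control replicate 1 (log2 fold change 0.43, edgeR adjusted p = 0.0192) and without both libraries of the pair (0.48, adjusted p = 0.0178). The effective length offset left Col4a5 at 0.13 (edgeR adjusted p = 0.396). The partner chains of Col4a5, Col4a3 and Col4a4 had at most 4 counts in any library. Col4a6, which begins 1293 bases away from Col4a5, had 3 counts in circSlc17a5 replicate 3 and none in the other libraries, which allows up to 3 counts in each. Col8a1, a network chain of the corneal and vascular endothelium, peaked at 13 counts in circSlc17a5 replicate 2.

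Of 6 FACIT chains 4 were tested and 0 were called by edgeR, DESeq2 or limma with all libraries and no offset. Before adjustment 1 of the 4 had an edgeR p under 0.05. This was Col20a1, with 123, 105 and 95 counts in circSlc17a5 libraries and 87, 84 and 74 in control libraries (log2 fold change 0.35, SE 0.15, edgeR adjusted p = 0.106). Col16a1, a FACIT chain of basement membrane zones, had 32.3, 27.9 and 30.6 FPKM with circSlc17a5, against 30.0, 33.0 and 31.0 in control, a difference within the spread (log2 fold change -0.13, SE 0.080, edgeR adjusted p = 0.239). Its deposited span shares 21280 bases with Adgrb2. It lies within the deposited spans of Zfp984, Gm13035, Gm42355, Gm13201 and Zfp534, which also contain Col15a1 and Col8a2. To hold Col15a1 and Col16a1, each must run at least from 47197487 to 130099277 of chromosome 4. Such a span is not taken here as the extent of a single gene. No source used here says whether strand was used in counting. Col9a3, a cartilage FACIT chain, had 11, 10 and 11 counts with circSlc17a5 and 11, 25 and 17 in control, and became a called fall without control replicate 1 (log2 fold change -1.03, edgeR adjusted p = 0.0289), though not without both libraries of the pair (adjusted p = 0.0709). Col12a1 was not called with all libraries (log2 fold change -1.13, SE 0.71, edgeR adjusted p = 0.256) or without control replicate 1, where its value was 0.50 (adjusted p = 0.353). Without both libraries of the pair its value was 0.62, again not called (edgeR adjusted p = 0.322). Col22a1 had 10, 3 and 6 counts with circSlc17a5 and 2, 1 and 0 in control.

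Among the other collagens Col23a1, a collagen anchored in the cell membrane (chromosome 11, 51289679 to 51583925), had 229, 210 and 220 counts with circSlc17a5, against 93, 95 and 95 in control. In FPKM these were 2.50, 2.35 and 2.42 with circSlc17a5 and 1.02, 1.01 and 1.00 in control, with no overlap and the smallest p of the 28 tested genes. It was 2.25-fold higher (log2 fold change 1.17, SE 0.11, edgeR adjusted p = 3.30e-04), and each of the 6 fits without a library kept the call. Col7a1, which forms the anchoring fibrils under epithelia (chromosome 9, 108953586 to 108984875), had 8.43, 7.64 and 8.33 FPKM with circSlc17a5, against 9.70, 10.5 and 10.9 in control. It was 1.35-fold lower (log2 fold change -0.43, SE 0.081, edgeR adjusted p = 0.00899), with a loss of the call without circSlc17a5 replicate 2 (adjusted p = 0.0503). Col18a1 had 148, 138 and 142 FPKM with circSlc17a5, against 127, 134 and 141 in control, and a log2 fold change of 0.01 (SE 0.080, edgeR adjusted p = 0.934). This value was -0.050 without control replicate 1 (edgeR adjusted p = 0.610) and -0.033 without both libraries of the pair (adjusted p = 0.826). Col13a1, Col17a1, Col28a1, Col6a4 and Col6a5 stayed under 10 counts in each library.

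Type VI collagen is a beaded filament that is normally built from the products of Col6a1, Col6a2 and Col6a3 together. Col6a1 (chromosome 10, 76708792 to 76726044) had 66.1, 60.2 and 67.5 FPKM with circSlc17a5, against 67.95, 66.3 and 72.1 in control (log2 fold change -0.17, SE 0.075, edgeR adjusted p = 0.12), with groups that overlapped in FPKM though not in CPM. Col6a2 (chromosome 10, 76594109 to 76623630) had only 2.92, 2.43 and 2.36 FPKM with circSlc17a5, against 3.80, 3.64 and 3.57 in control, and was 1.505-fold lower (log2 fold change -0.59, SE 0.11, edgeR adjusted p = 0.00827). Col6a3 had 0.53, 0.41 and 0.41 FPKM with circSlc17a5 and 0.45, 0.22 and 0.19 in control (log2 fold change 0.54, SE 0.30, edgeR adjusted p = 0.207), with control replicate 1 at the level of the circSlc17a5 libraries. It became a called rise without control replicate 1 (log2 fold change 1.03, edgeR adjusted p = 0.00534), and likewise without both libraries of the pair (1.11, adjusted p = 0.00655). The effective length offset left Col6a3 at 0.32 (edgeR adjusted p = 0.415). The level of Col6a1 per length was 22.7, 24.8 and 28.6 times that of Col6a2 with circSlc17a5, against 17.9, 18.2 and 20.2 times in control. It ranged from about 125 to about 379 times that of Col6a3, which was low at 0.53 FPKM or less. The chains of this trimer were therefore far from equal in all 6 libraries, at the level of RNA.

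Of 10 laminin chains 6 were tested, 4 rose and 0 fell, with a median log2 fold change of 0.40. Beside this, 11.8% of all tested genes rose, and 27.2% of those at least as long as the median member. With the effective length offset Lama5 and Lama3 lost their calls (edgeR adjusted p = 0.0955 and 0.0690). Lamc1 kept its call there (adjusted p = 0.0467), and Lamb2 became a called fall (adjusted p = 0.0123). Lama5, the alpha chain of mature vascular and epithelial basement membranes (chromosome 2, 180176373 to 180225904), had 73.1, 57.9 and 57.4 FPKM with circSlc17a5, against 47.6, 39.7 and 47.2 in control. It was 1.32-fold higher (log2 fold change 0.41, SE 0.10, edgeR adjusted p = 0.0223). Lamc1, the gamma chain of most laminins (chromosome 1, 153218922 to 153332786), had 61.8, 47.0 and 50.6 FPKM with circSlc17a5, against 43.0, 31.6 and 37.8 in control, and was 1.34-fold higher (log2 fold change 0.43, SE 0.11, edgeR adjusted p = 0.0261). In both genes the groups did not overlap, and circSlc17a5 replicate 1 was the highest and control replicate 2 the lowest library. Each of these calls held in 2 of the 6 fits without a library (highest adjusted p = 0.0883 for Lama5 and 0.111 for Lamc1). Lama3 encodes the alpha chain of the epithelial laminin of skin. It was low, with 22, 13 and 20 counts in circSlc17a5 libraries and 8, 9 and 8 in control libraries (log2 fold change 1.07, SE 0.33, edgeR adjusted p = 0.0407). DESeq2 did not call Lama3 (adjusted p = 0.15), and Lama3 kept the call in 1 of the 6 fits without a library. Lamb3, the beta chain of the same epithelial laminin, had at most 3 counts in any library.

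Of the beta chains Lamb1 and Lamb2 were tested, and neither was called with all libraries and no offset. Lamb1 (chromosome 12, 31265146 to 31329644) had 83.0, 71.0 and 73.4 FPKM with circSlc17a5, against 68.1, 67.1 and 70.2 in control, and was not called (log2 fold change 0.09, SE 0.075, edgeR adjusted p = 0.393). Lamb2, the beta chain of the synaptic and glomerular basement membrane, had 20.97, 18.55 and 18.7 FPKM with circSlc17a5, against 20.7, 22.5 and 21.3 in control (log2 fold change -0.23, SE 0.077, edgeR adjusted p = 0.0571), with groups that overlapped in FPKM though not in CPM. DESeq2 called it lower (adjusted p = 0.0436), as did edgeR without control replicate 1 (adjusted p = 0.0126), and without both libraries of the pair it was not called (adjusted p = 0.0642). Lama2 and Lama4, the alpha chains of muscle and vessels, were nearly absent, as was the gamma chain gene Lamc3 with at most 1 count. Lama4 had 0, 4 and 0 counts with circSlc17a5 and 7, 0 and 0 in control, present in the same pair of libraries as Col1a2 at too low a level to be counted with it.

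Ratios between chains within a library do not depend on library scaling. The ratio of Lamb1 to Lamb2 in FPKM was 3.90 ± 0.066 with circSlc17a5 and 3.19 ± 0.18 in control (SD, n = 3 each), and that of Lamb1 to Lamc1 was 1.43 ± 0.086 with circSlc17a5 and 1.85 ± 0.27 in control. The ratio of Col6a1 to Col6a2 was 25.3 ± 3.01 with circSlc17a5 and 18.8 ± 1.252 in control, and that of Col5a3 to Col5a1 was 2.51 ± 0.027 with circSlc17a5 and 2.21 ± 0.18 in control. The groups did not overlap for these 4 of 11 ratios. In CPM they did not overlap for 42.6% of all single tested genes, and ratios of other gene pairs were not examined. In a two-sided exact permutation test each of the 4 ratios gave p = 0.1, the smallest that 3 against 3 libraries allow (0.275 adjusted over the 11). No ratio can therefore pass 0.05 in this test. Col4a1 to Col4a2 stood at 1.53 ± 0.021 with circSlc17a5 and 1.41 ± 0.17 in control, and Lama5 to Lamc1 at 1.18 ± 0.050 with circSlc17a5 and 1.204 ± 0.083 in control, both with overlap.

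**Figure D5:**
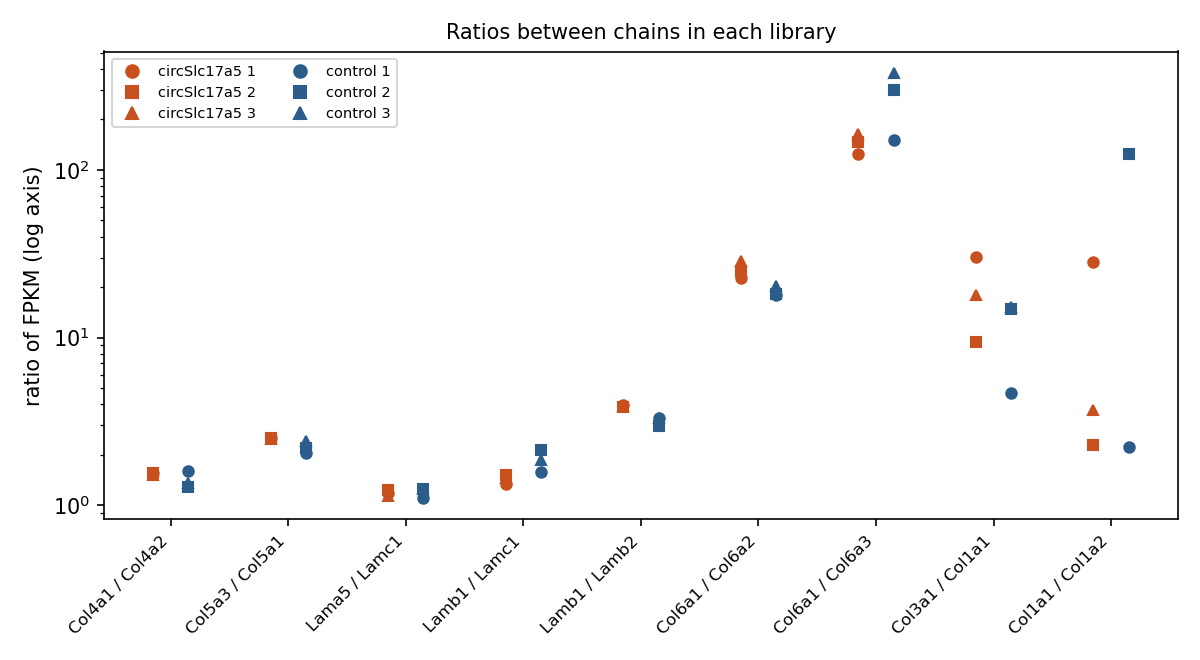
Ratio of FPKM values between 9 pairs of chains in each library (log axis), with circSlc17a5 libraries left and control libraries right of each pair. Lamb1 to Lamb2 lies between 3.83 and 3.96 with circSlc17a5 and between 2.99 and 3.30 in control, Col6a1 exceeds Col6a2 by 17.9 to 28.6 times, and Col1a1 to Col1a2 is spread widest, with control replicate 3 not shown because Col1a2 is listed at 0 there.

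Estimates per transcript moved more than the genes did in a few cases. Of the 3 Lamb1 transcripts, the curated RefSeq one took 77.2%, 62.7% and 64.0% of the gene's TPM in circSlc17a5 replicates 1, 2 and 3, against 40.6%, 3.03% and 26.1% in control replicates 1, 2 and 3, while the more abundant of the predicted ones took 0.01%, 13.3% and 22.1% with circSlc17a5 and 45.9%, 96.0% and 62.05% in control. The shares did not overlap between the groups, while the gene total was even. For Col4a5, the most abundant transcript took 61.0%, 54.3% and 49.4% with circSlc17a5 and 55.5%, 12.9% and 32.3% in control, with overlap through control replicate 1. These shares are the authors' estimates for transcripts that may share most of their sequence and were not tested. The leading transcript of Col18a1 took between 93.3% and 94.0% with circSlc17a5 and between 92.5% and 94.2% in control.

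The lists of genes that modify, process or bind these chains are given beside the 11.8% of all tested genes that rose and the 10.2% that fell. Of 20 tested genes of collagen modification and secretion 1 rose, 1 fell and 18 were not called, with a median log2 fold change of 0.05. Sec23a, a coat protein of the vesicles that carry procollagen, had 47.9, 40.2 and 40.2 FPKM with circSlc17a5, against 28.0, 20.8 and 26.9 in control (1.61-fold higher, edgeR adjusted p = 0.00386), and P4ha3, a prolyl hydroxylase subunit, was 1.34-fold lower (edgeR adjusted p = 0.0163). Serpinh1, the collagen chaperone, was even, with 508, 518 and 529 FPKM with circSlc17a5 and 518, 424 and 433 in control (log2 fold change 0.10, edgeR adjusted p = 0.389). Of 9 tested genes of processing and crosslinking 2 rose and 2 fell. Pcolce, which enhances cleavage of the fibrillar propeptide, was 1.41-fold lower (edgeR adjusted p = 0.00826), the lysyl oxidase gene Loxl3 1.27-fold lower (adjusted p = 0.0198) and Loxl4 1.28-fold higher (adjusted p = 0.0347). Of 9 tested partners of the basement membrane 1 rose and 1 fell, Fbln1 at 1.33-fold higher (edgeR adjusted p = 0.0146) and the low Smoc1 at 2.59-fold lower (adjusted p = 0.0218). Nid1, which links laminin to type IV collagen, was not called, with 161, 132 and 129 FPKM with circSlc17a5 and 139, 96.5 and 116 in control (log2 fold change 0.19, edgeR adjusted p = 0.25). Of 11 tested receptors 1 rose, Dag1, the laminin-binding dystroglycan, at 1.285-fold higher (edgeR adjusted p = 0.0409). Calls of list and marker genes were not followed through the offsets and left-out libraries used for the collagens and laminins.

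The authors' deposited table listed 5 of the 48 genes as higher and 2 as lower at a q-value under 0.05, and all 7 were among the 9 called by edgeR. Both come from the same 6 libraries, so the overlap is no independent support. The authors' share over all genes was not computed. The DESeq2 fit made here called 7 of the 48 higher and 3 lower, beside 1353 and 1224 of all 15392 genes. In the authors' deposited table Lama3 had a log2 fold change of 1.08 (q = 0.189). The authors' deposited table gave Col23a1 a log2 fold change of 1.17 (the authors' value, q = 3.82e-09).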

How the data were processed

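Total RNA (TRIzol) of 3 circSlc17a5 and 3 empty vector samples went into SMARTer mRNA libraries, per the labels' protocols. Expected counts, FPKM and TPM were deposited by the authors, and columns named NC and OE were read as negative control and circSlc17a5 by their number and letter. HISAT2 2.0.4, Bowtie2 2.2.5 and RSEM 1.2.12 appear in the submitters' processing notes without roles. The authors' deposited table also gives log2 fold changes with p-values and q-values from DESeq2, per the file headers. No source used here names the genome build. Of the 48 genes, 34 match RefSeq GRCm38.p6 positions within 1 base, and positions are printed as deposited. Of 15399 genes, 15398 had an annotation entry and were used.

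Expected counts were rounded, filtered by filterByExpr, scaled by TMM and tested over all genes with edgeR 4.0.16 (R 4.3.3) between the groups, with Benjamini-Hochberg adjustment. SE is the absolute log2 fold change over the square root of F. Alternatives were DESeq2 1.42.0, RLE scaling, no filter, limma 3.58.1 on log2(FPKM + 1) and log2(FPKM + 0.1), loess offsets for effective length (from counts and FPKM) and GC content, a replicate block and libraries left out. The edgeR, DESeq2 and limma tests were tested on simulated data. The members and gene lists were chosen with earlier results of these data known. Named genes are the members and, per pathway list, up to 3 called genes with the smallest adjusted p, or the 2 highest where 0 were called; Serpinh1, Nid1, Itga3 and Itgb1 were added after their values were seen. One called member enters the counts and is not reported here by name. Per-library values of the others are given for members with a mean of at least 1 FPKM, for called members and for those high in the pair of libraries.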

Additional observations from a re-analysis of the deposited data

How the results depend on the processing

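The number of collagen and laminin genes called higher was 7. It was 3 with the effective length offset, 11 with the replicate block and between 1 and 13 with a single library left out. The number called lower was 2, and 5 with the length offset, 4 with the offset for length and GC content, and between 1 and 4 with a library left out. Over all tested genes 1386 were called higher, 1315 with the effective length offset and 2324 with the replicate block. Between 346 and 2424 were called higher with a library left out. All genes called in either direction numbered 2584, 4429 with the replicate block and between 462 and 4699 with a library left out (4699 without control replicate 1, 462 without circSlc17a5 replicate 1). On log2(FPKM + 1), limma called 1481 genes higher and 676 lower (68.7% higher, against 53.6% with edgeR on counts). Same-numbered libraries correlated at 0.219, 0.068 and 0.065 in their deviations from the group means, and circSlc17a5 replicate 3 correlated more with control replicate 2 (0.31), so the numbers were not taken as pairs. The number of genes high in circSlc17a5 replicate 2 and control replicate 1 was 3, and 1 with a fold of 4. That of even genes was 11, and 19 at a ratio under 2 and 3 at the narrowest ratio tried.

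Of 417 results of single members under the alternatives 354 kept their side of the threshold with no change of sign in a called value, 36 lost and 24 gained a call. The other 3 turned direction without control replicate 1, with a log2 fold change of 6.66 for Col11a1 (-1.30 to 6.66 over the libraries left out), 6.08 for Col1a2 (-2.05 to 6.08) and 7.999 for Col5a2 (-2.25 to 7.999). The positive ones are fitted against control libraries at or near 0 counts, so their size depends on the prior count. The cause of the other shifts was not tested. Depth limits the 15 genes under 10 counts, for which a difference was not detectable.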
